A study of Mus musculus with 12 samples.

Results

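The genes described are the drivers and inhibitors of the step from G1 to S phase of the cell cycle, followed as DNA copy number in liver tumors of Mdr2-KO/FVB mice. The 10 genes listed were Ccnd1, Ccnd3, Ccne1, Ccne2, Cdk4, Cdk6, Cdkn1a, Cdkn2a, Cdkn2b and Rb1, and a gene was included when a probe on the arrays carried its name in all 12 data files. Probes were found for 9 of them, 16 probes in all, out of 20464 gene names with values, and Cdkn2b was not analysed here. In array-based comparative genomic hybridization (aCGH), tumor DNA and reference DNA carry different dyes and compete for the same probes, so that the ratio of the dyes at a probe follows the relative number of DNA copies there. Tumor DNA was labelled with Cy5, and with Cy3 the DNA of liver tissue without tumor, taken at a distance from the tumor in the same animal, 1 array per tumor and no dye swap, so a dye bias and a difference between tumor and liver cannot be told apart.

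The mice of both groups lacked Mdr2 (also named Abcb4), the phospholipid transporter of bile, and developed chronic liver inflammation and then hepatocellular carcinoma (HCC). The deletion was present in tumor and reference DNA alike, so the ratio does not check it. The 6 post-PHx tumors (PHx1M to PHx6F, 4 males and 2 females) came from 9-month-old mice that had undergone 70% partial hepatectomy (PHx), the surgical removal of most of the liver, at either 3 or 6 months. The 6 spontaneous tumors (Spon1M to Spon6F, 2 males and 4 females) came from untreated mice aged 13 to 14 months. Surgery and age at sampling therefore differed together between the groups and cannot be told apart.

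As background, D-type cyclins bind the kinases Cdk4 and Cdk6, and these complexes phosphorylate the retinoblastoma protein Rb1, which then releases E2F transcription factors. E2F factors raise the E-type cyclins, which complete the phosphorylation of Rb1 and start DNA synthesis. Inhibitors of the INK4 family, encoded at Cdkn2a and Cdkn2b, block Cdk4 and Cdk6, and the CIP/KIP inhibitor p21 encoded by Cdkn1a blocks several kinases of the cycle. In liver, hepatocytes leave quiescence after hepatectomy through this same step, and it is among those most often altered in HCC.

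Every value below is a log2 ratio of tumor over matched liver, centred so that the median autosomal probe of each array is 0. A value of a gene is the mean over its own probes and 10 flanking probes on each side (its window), because most members had only 1 or 2 probes. Windows spanned from 0.33 Mb for Cdk4 to 4.25 Mb for Ccne1, with 3.47 Mb for Rb1 and 2.53 Mb for Cdkn2a. A change confined to a gene is averaged over that stretch. A gain or loss was called where a stretch of probes stood apart from 0 with a weighted mean of at least 0.4 in size and covered the gene. The stretch was not set against its chromosome, so a call can span most of a chromosome and need not be focal. A gain in a part of the cells and a smaller gain in all cells give the same ratio and cannot be told apart. The noise between neighbouring probes ran from 0.15, lowest in Spon1M, to 0.26, highest in Spon2M. Spon3F, Spon1M and Spon2M had the most called regions, 142, 60 and 46. Of these, 121, 19 and 31 held fewer than 5 probes. The arrays stood on 3 slides of 4, of which 1 held both groups (PHx5M, PHx6F, Spon5F and Spon6F). Over probes outside chromosomes 17 and 18, the ratios of 2 arrays correlated with a median r of 0.33 on the same slide and 0.17 on different slides. This is a description over probes, which are not independent. Pairs on the same slide were mostly of the same group too, so slide and group cannot be told apart in it. X chromosome signals in both channels fitted the sex given in each name.

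Members were gained in 5 of 6 post-PHx tumors and in 2 of 6 spontaneous tumors, and a member was lost in 1 spontaneous tumor and in no post-PHx tumor. By gene, 4 of 9 members (Cdk6, Ccnd3, Ccne1 and Ccne2) lay in a called gain in at least 1 post-PHx tumor, against 9.3% of all genes. In spontaneous tumors 2 of 9 members (Ccnd3 and Ccne2) were gained at least once, against 8.31% of all genes, and 1 of 9 (Rb1) was lost at least once, against 10.6%. Gains in both groups covered 2 of 9 members and 2.59% of all genes. No gene at all was in a called loss in a post-PHx tumor (0.0%). These counts describe the members and were not tested, since neighbouring genes share their gains.

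**Figure D1:**
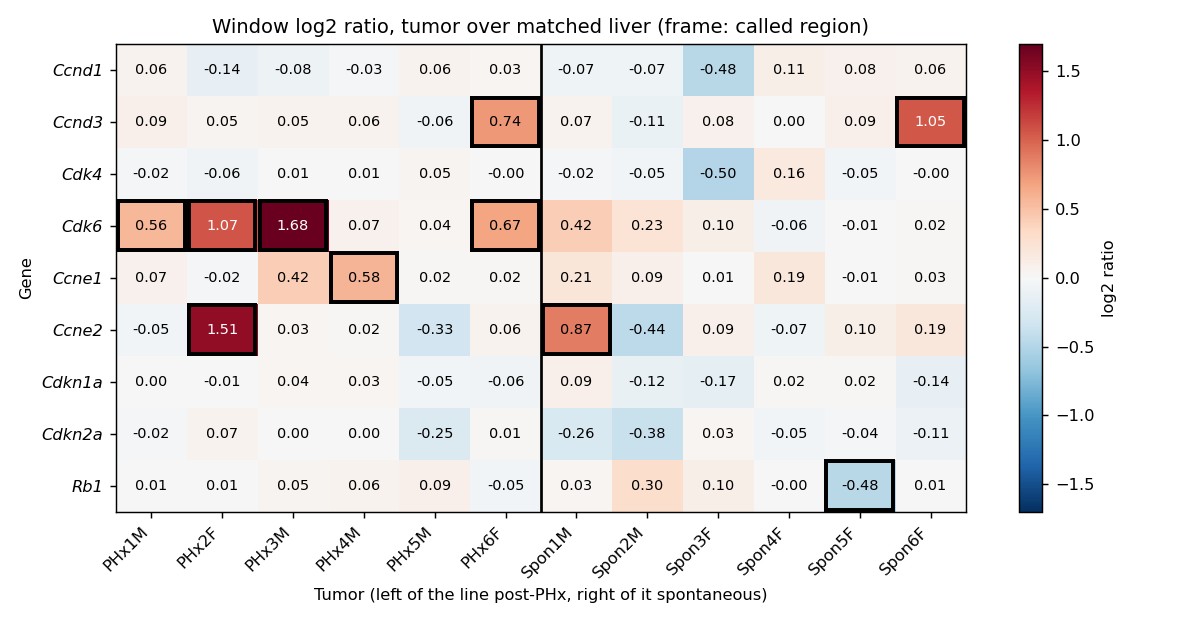
Window log2 ratio of each member (rows) in each tumor (columns), red above and blue below 0, with frames around the 10 values that lay in a called region. Cdk6 is framed in 4 post-PHx tumors and in no spontaneous one, Ccnd3 and Ccne2 in 1 tumor of each group, Ccne1 in PHx4M and Rb1, as a loss, in Spon5F.

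Cdk6, a partner kinase of the D-type cyclins, was the member gained most often. Its 2 probes lie at chr5:3426774-3521532 (mouse genome build mm8, as for all coordinates here), with only 1 probe before them on the chromosome, so its window reached mostly to one side and held 13 probes. From PHx1M to PHx6F the window values were 0.56, 1.07, 1.68, 0.07, 0.04 and 0.67. From Spon1M to Spon6F they were 0.42, 0.23, 0.10, -0.06, -0.01 and 0.02. PHx3M stood highest, with more than 3 times the DNA of its liver (3.20-fold), and 4 post-PHx tumors lay above every spontaneous one. The groups overlapped, because PHx4M and PHx5M lay below Spon1M, Spon2M and Spon3F.

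A gain over Cdk6 was called in 4 of 6 post-PHx tumors and in 0 of 6 spontaneous tumors. Only 0.406% of all genes were gained in at least 4 post-PHx tumors. All 4 regions began at the first probe of chromosome 5, at 3285647, and did not all end at the same place. They reached 5793960 in PHx6F (2.51 Mb, mean 0.67), 7184333 in PHx2F (3.90 Mb, mean 0.94) and 9741756 in both PHx1M and PHx3M (6.46 Mb, means 0.40 and 1.65). The end in PHx2F depended on the limit for a call, and with a limit of 0.25 it lay at 9517499 (6.23 Mb). The stretch common to the 4 gains was thus that of PHx6F, 2.51 Mb with 22 gene names, of which Cdk6 is one, and the gains do not single Cdk6 out from its neighbours. In Spon1M the Cdk6 window stood at 0.42 and the Cdk6 probes at 0.51, yet no gain was called. A gain was called there with the limit set to 0.25, along 12.6 Mb with a mean of 0.31, and with equal probe weights. It was also called when a window mean of at least 0.4 counted as a call. PHx1M, with a mean at the limit, lost its call with the limit set to 0.6. Called gains covered 1.11% of genes in PHx1M, 2.09% of genes in PHx2F, 3.42% of genes in PHx3M and 1.06% of genes in PHx6F, so that Cdk6 lay in a small gained part of each genome.

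**Figure D2:**
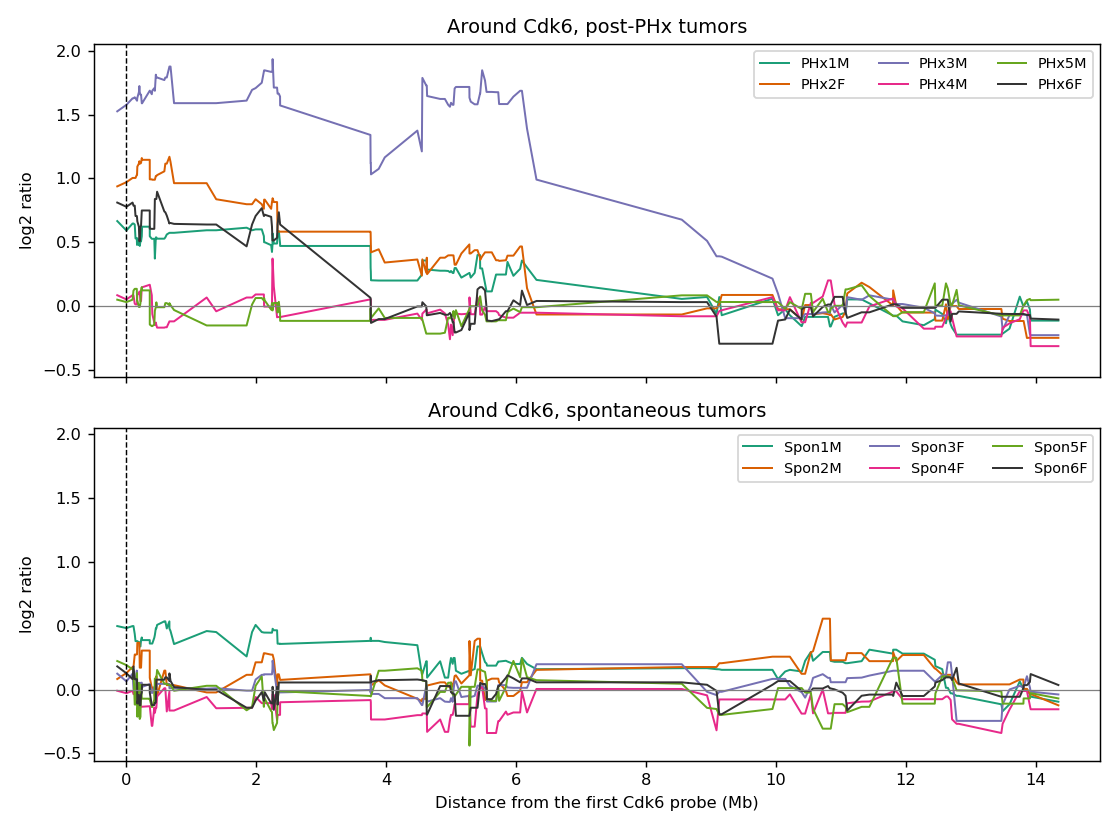
Running median of the log2 ratio over 5 probes against the distance from the first Cdk6 probe (dashed line) in Mb, 1 line per tumor, post-PHx above and spontaneous below. PHx1M, PHx2F, PHx3M and PHx6F start above 0.4 at the chromosome start and step down at different distances, PHx6F first, while Spon1M starts lower than these 4 and the other spontaneous tumors show no such step at the start.

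The mean of Cdk6 was 0.68 ± 0.63 (SD, n = 6) in post-PHx and 0.12 ± 0.18 (SD, n = 6) in spontaneous tumors. The difference of 0.57 (SE 0.23) did not pass the test across all genes (limma, p = 0.031, adjusted p = 0.708), nor by the exact permutation test of the 6 against 6 tumors (two-sided p = 0.0455, adjusted p = 0.665). Within the slide that held both groups the difference was 0.35 (limma, adjusted p = 0.871). There PHx6F stood at 0.67 and PHx5M at 0.04, against -0.01 in Spon5F and 0.02 in Spon6F. Slide as a block over all 12 arrays gives that same difference by design, since no other slide held both groups, and is not a second check. Against their own livers, the post-PHx tumors had a Cdk6 value above 0 in 6 of 6 tumors, which did not pass (limma, SE 0.17, adjusted p = 0.318). That SE rests on a spread shared by both groups. Cdk6 passed with its 2 probes alone (limma, adjusted p = 0.0345) and with array weights (limma, adjusted p = 0.0137). Those fits called 540 and 1761 of 20464 genes. The exact test on the signs of the 6 values gave p = 0.0312, the smallest it can give (adjusted p = 0.190). Without PHx3M the difference between the groups was 0.37. The genes whose windows followed that of Cdk6 most closely over the 12 tumors, with no shared probe, were AK129226 and Akap9, a scaffold protein gene, at 1.38 and 0.584 Mb from it, with root-mean-square differences of 0.064 and 0.069 on the log2 scale. On another chromosome the smallest such difference was 0.33.

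Cdk4, the related kinase, had 1 probe, at chr10:126470234-126470293, and no called region under the call rule above. Its window lay between -0.06 and 0.05 in the post-PHx tumors, with a median of 0.01, and between -0.50 and 0.16 in the spontaneous tumors, with a median of -0.03. Spon3F alone lay far from 0. There its own probe stood at -0.13 and the median of the window at -0.13, so a few flanking probes set the mean of -0.50. A loss was called in Spon3F when calls anywhere in the window counted. The same held when a window mean of at least 0.4 in size counted as a call. The groups differed by 0.08 (SE 0.08, limma, adjusted p = 0.982).

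Ccnd1, the D-type cyclin most often amplified in human HCC, showed no called region either. Its single probe lies at chr7:144741829-144741888 near the chromosome end. Window values ran from -0.14 to 0.06 in post-PHx tumors, with a median of 0.00, and from -0.48 to 0.11 in spontaneous tumors, with a median of -0.01. As for Cdk4, only Spon3F stood apart, and there too the median over the window was nearer to 0, at -0.10. A loss was called in Spon3F only when a window mean of at least 0.4 in size counted as a call. The probe itself was erratic, at 0.70 in PHx1M, -0.74 in PHx3M and 0.72 in Spon2M against flanks of 0.02, -0.05 and -0.12. The difference between the groups was 0.04 (SE 0.09, limma, adjusted p = 0.982).

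Ccnd3, the other D-type cyclin with probes among the members, was gained in 1 tumor of each group. Its 4 probes lie at chr17:46993588-47060036. In post-PHx tumors the window ran from -0.06 to 0.74 with a median of 0.06, and in spontaneous tumors from -0.11 to 1.05 with a median of 0.07. PHx6F (0.74) and Spon6F (1.05) stood far above the rest, whose highest value was 0.09. Their own probes gave 0.68 and 1.04, beside flanks of 0.75 and 1.05.

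The gain of PHx6F ran over chr17:40416263-51350221 (10.9 Mb, 254 probes, mean 0.85, 126 gene names). That of Spon6F ran over chr17:42512511-47553980 (5.04 Mb, 168 probes, mean 1.27, 90 gene names) and lay inside it, ending 0.494 Mb beyond Ccnd3. The probes of the gain before Ccnd3 averaged 0.98 in PHx6F and 1.32 in Spon6F, and those after it 0.65 and 0.98, so both gains were higher before the gene than after it. Gains covered 1.06% of genes in PHx6F and 0.645% in Spon6F. Both tumors were from females and both arrays were on the same slide, and outside chromosomes 17 and 18 their probe ratios correlated at r = 0.56. Spon5F, the remaining female on that slide, correlated with them at 0.59 and 0.55 and stood at 0.09 over Ccnd3. Whether the arrays of PHx6F and Spon6F are independent was not tested, and the Ccnd3 gain in both groups rests on both of them. The closest followers were the receptor genes Gpr110 and Gpr116, 4.26 and 4.08 Mb away (root-mean-square differences of 0.12 for both). The groups differed by -0.04 (SE 0.19, limma, adjusted p = 0.995), which was -0.23 within the slide that held both groups and -0.50 with array weights (adjusted p = 0.542).

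The E-type cyclins were gained as well, each in different tumors. Ccne1 has 1 probe, at chr7:37809357-37809416. Its window values in the post-PHx tumors were 0.07, -0.02, 0.42, 0.58, 0.02 and 0.02 from PHx1M to PHx6F. In the spontaneous tumors they ran from -0.01 to 0.21 with a median of 0.06. PHx4M and PHx3M exceeded all others, while the remaining post-PHx tumors lay within the spontaneous range or, for PHx2F, just below it.

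Only PHx4M had a called gain, over chr7:33913245-40763238 (6.85 Mb, 66 probes, mean 0.57), where gains covered 4.15% of all genes. It was not called with a score threshold of 10 or a limit of 0.6. In PHx3M a stronger gain (chr7:17227678-31013605, 424 probes, mean 1.06) ended 6.80 Mb before Ccne1, and the ratio stayed above 0 up to and past the gene. With a limit of 0.25 the gain of PHx3M was called as far as 42202373 and included Ccne1, and so it was with centring on the mode. Ccne1 in PHx3M also counted as gained when a window mean of at least 0.4 was taken as a call. The mean was 0.18 ± 0.25 (SD, n = 6) in post-PHx and 0.08 ± 0.10 (SD, n = 6) in spontaneous tumors, a difference of 0.10 (SE 0.10, limma, adjusted p = 0.982). It was 0.017 without PHx4M, 0.050 without PHx3M, 0.013 within the slide that held both groups and 0.0013 with the Ccne1 probe alone.

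Ccne2 has 2 probes, at chr4:11121120-11126529. Its window ran from -0.33 to 1.51 in post-PHx tumors with a median of 0.02, and from -0.44 to 0.87 in spontaneous tumors with a median of 0.09. PHx2F carried the second highest value of all members in any tumor, 1.51 or 2.84-fold, and Spon1M carried 0.87. Spon2M (-0.44) and PHx5M (-0.33) were the lowest, and in both the whole chromosome was low, with medians of -0.38 and -0.23. In Spon2M a loss over Ccne2 was called with the limit set to 0.25 (34.7 Mb, mean -0.37) and with normexp background correction. It was also called when a window mean of at least 0.4 in size counted as a call.

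Gains were called in PHx2F over chr4:4649473-16186673 (11.5 Mb, 116 probes, mean 1.30) and in Spon1M over chr4:9469402-13892736 (4.42 Mb, 52 probes, mean 0.87), the second inside the first. In Spon1M the remainder of chromosome 4 was low (median -0.21), so Ccne2 stood 1.08 above its chromosome. Gains covered 2.09% of genes in PHx2F and 7.08% in Spon1M. The followers of Ccne2 were 6720467C03Rik and C430048L16Rik, 0.970 and 0.901 Mb away (root-mean-square differences of 0.046 and 0.048). The groups differed by 0.08 (SE 0.28, limma, adjusted p = 0.990).

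**Figure D3:**
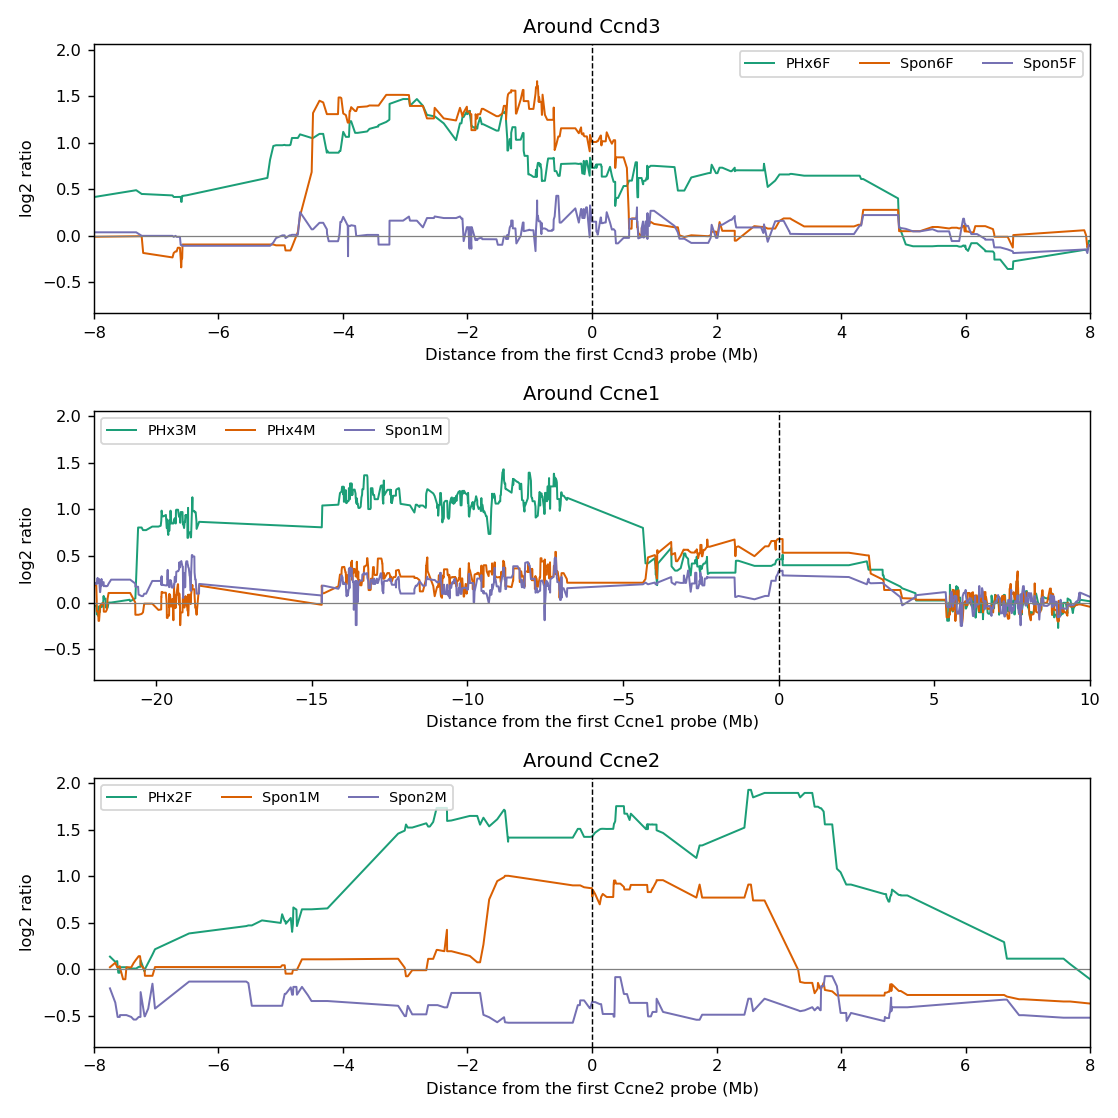
Running median of the log2 ratio over 5 probes against the distance in Mb from the first probe (dashed line) of Ccnd3, Ccne1 and Ccne2, with the 2 highest tumors of each gene and 1 other for comparison. The Ccnd3 gain of Spon6F ends soon after the gene while that of PHx6F goes on, the gain of PHx3M is strongest well before Ccne1, and the Ccne2 gain of Spon1M is narrower than that of PHx2F.

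Of the inhibitors, Cdkn1a, which encodes p21, had window values near 0 throughout. Its probe is at chr17:28823626-28823685, on the chromosome of Ccnd3 but outside both gains. Window values ran from -0.06 to 0.04 in post-PHx tumors and from -0.17 to 0.09 in spontaneous tumors, with medians of 0.00 and -0.05. Values of the groups overlapped, and no region was called over its probe. A loss in Spon3F was called when calls anywhere in the window counted. The difference between the groups was 0.04 (SE 0.05, limma, adjusted p = 0.982). The probe itself stood at -0.44 in PHx5M and 0.26 in PHx6F, against flanks of -0.03 and -0.08. Both gaps lay outside the central 95% of genes on their arrays.

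Cdkn2a, which encodes an INK4 inhibitor and the p53 activator Arf, had no called region but was low in 3 tumors. Its 2 probes lie at chr4:88759685-88763451. The post-PHx values were -0.02, 0.07, 0.00, 0.00, -0.25 and 0.01 from PHx1M to PHx6F. The spontaneous values were -0.26, -0.38, 0.03, -0.05, -0.04 and -0.11 from Spon1M to Spon6F. Spon2M, Spon1M and PHx5M were low, and the others lay between -0.11 and 0.07.

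The low window values of Cdkn2a lay close to those of its chromosome. In Spon2M, Spon1M and PHx5M, 88.6%, 90.3% and 91.3% of the probes of chromosome 4 were below 0, with medians of -0.38, -0.21 and -0.23. Set against the chromosome's median, the Cdkn2a window lay between -0.07 and 0.01 in all 12 tumors. The 2 own probes of Cdkn2a in Spon2M were lower, at -0.72 and -0.53, against -0.36 for the flanking probes, a gap of -0.27 that lay within the central 95% of genes on that array (-0.47 to 0.60). The call rule needs 0.4 in size, and a loss over Cdkn2a in Spon2M was called with a limit of 0.25 (unweighted mean -0.40 over 41.8 Mb), with no centring and with normexp background correction. Against their own livers the spontaneous tumors averaged -0.13 ± 0.16 (SD, n = 6), below 0 in 5 of 6, which did not pass (limma, SE 0.05, adjusted p = 0.206), except with sex as a covariate (-0.17, adjusted p = 0.0368). That mean was -0.06 with slide as a block, -0.22 with own probes alone (adjusted p = 0.090) and -0.085 without Spon2M. The difference between the groups was 0.11 (SE 0.07, limma, adjusted p = 0.979), and 0.055 without Spon2M.

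Rb1, the substrate of the cyclin D kinases and the brake on E2F factors, was lost in 1 tumor. Its 2 probes lie at chr14:71972492-71974145. Post-PHx values ran from -0.05 to 0.09 with a median of 0.03, and spontaneous values from -0.48 to 0.30 with a median of 0.02. Spon5F was lowest and Spon2M highest, and the post-PHx values all lay between them.

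In Spon5F the loss took in nearly the whole chromosome, chr14:6663640-123875911 (117.2 Mb, 1540 probes, mean -0.49, 727 gene names), and 98.6% of the probes of chromosome 14 were below 0. Called losses covered 5.5% of genes in that tumor. The 2 Rb1 probes averaged -0.97 there, against -0.43 for the flanking probes. The gap of -0.54 lay outside the central 95% of genes on that array (-0.42 to 0.37), and with 2 probes it is no more than a value to note. Over the members, 6 of 108 such gaps lay outside the central 95% of their array, 5 of them from genes with 1 probe. The loss was not called with a limit of 0.6. In Spon2M the value of 0.30 over Rb1 stood 0.14 above a chromosome median of 0.16. A gain over Rb1 was called there with the limit set to 0.25 (4.84 Mb, 73 probes, mean 0.32). The groups differed by 0.03 (SE 0.10, limma, adjusted p = 0.987), and by 0.25 both within the slide that held both groups and with the 2 Rb1 probes alone.

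**Figure D4:**
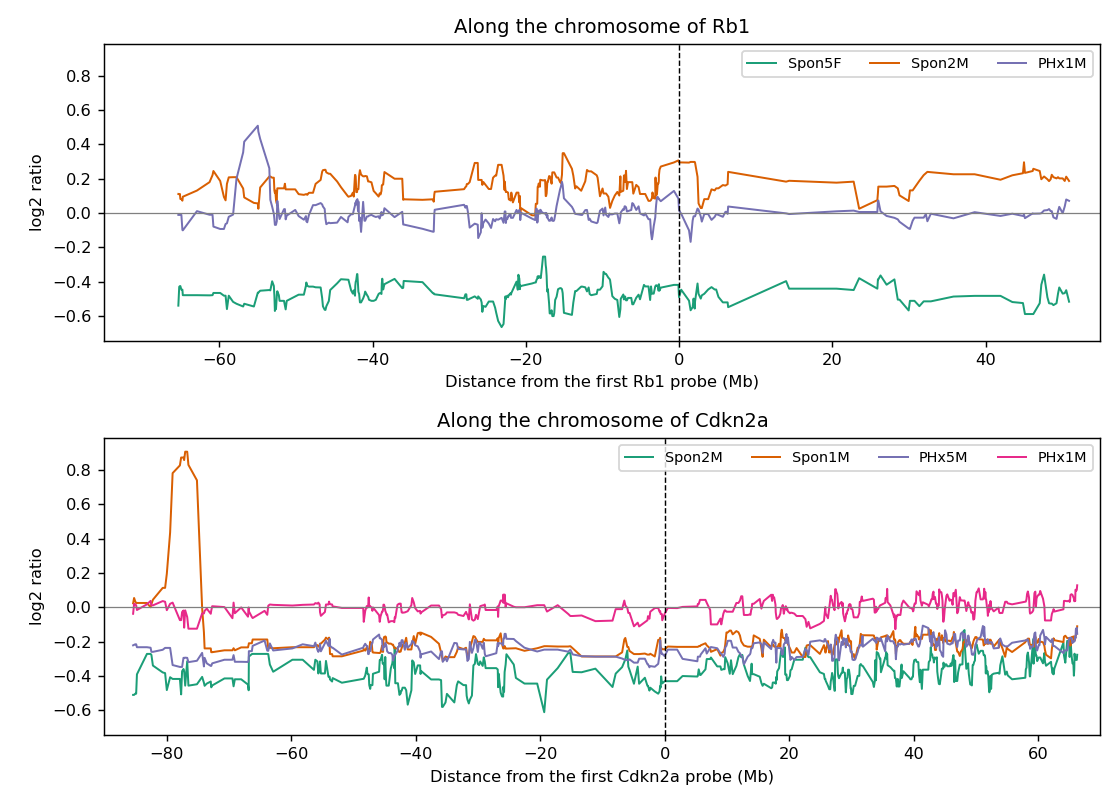
Running median of the log2 ratio over 25 probes, thinned to 1 point in 5, against the distance in Mb from the first probe (dashed line) of Rb1 and of Cdkn2a, along the whole chromosome of each. Spon5F is below 0 along the chromosome of Rb1, and Spon2M, Spon1M and PHx5M are below 0 along the chromosome of Cdkn2a, apart from the start in Spon1M where Ccne2 lies, with PHx1M shown for comparison near 0.

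Across the 3 comparisons fitted over all 20464 genes (post-PHx against spontaneous tumors, and each group against its own livers), limma called 0 members and 0 genes at an adjusted p under 0.05 (0.0% in each). At an unadjusted p under 0.05 there were 1304, 1410 and 3385 genes, and the exact permutation tests also called 0 genes after adjustment (1482, 3366 and 1331 unadjusted). The smallest p those tests can give is 0.00216 between the groups and 0.0312 within one. Among the members, Cdk6 passed the unadjusted limma threshold between the groups and in post-PHx tumors. Ccne1 passed it in post-PHx and Cdkn2a in spontaneous tumors. The limma tests within a group use a spread shared by both groups. By the exact tests Cdk6 passed in both comparisons (p = 0.0455 and 0.0312), but Ccne1 (p = 0.094) and Cdkn2a (p = 0.0625) did not. The median difference between the groups was 0.08 over the members, 0.04 over the other G1/S genes and 0.01 over all genes, and 8 of 9 members were higher in post-PHx tumors, as were 21 of 30 other G1/S genes and 58.0% of all genes. That direction turned in at least 1 alternative for Ccnd1, Ccne2, Cdk4, Cdkn1a, Cdkn2a and Rb1, and for Ccnd3, the member that was lower.

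**Figure D5:**
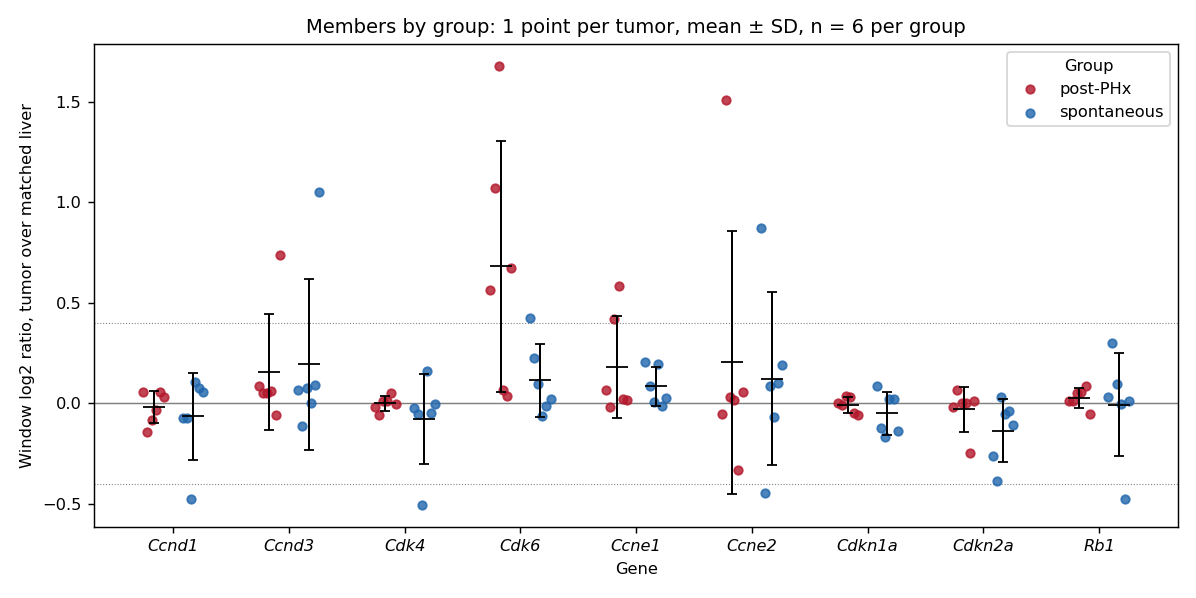
Window log2 ratio of each member in the 6 post-PHx (red) and 6 spontaneous (blue) tumors, 1 point per tumor, with the mean and SD in black and dotted lines at 0.4 and -0.4, the limit for a call. The groups overlap for every member, and the widest spread belongs to Cdk6 in post-PHx tumors and to Ccne2.

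The other genes of the pathway were 38 listed genes, of which 30 had probes. Between the groups, 0 of 30 passed the test, and 2 were higher and 0 lower in post-PHx tumors at an unadjusted p under 0.05, a share of 6.67% against 6.37% of all genes. Against own liver, again 0 of 30 passed in either group (5 higher and 1 lower unadjusted in post-PHx, 1 higher and 5 lower in spontaneous tumors). That was 6 of 30 in each group, against 6.89% of all genes in post-PHx and 16.5% in spontaneous tumors. A called region of at least 5 probes covered 9 of the 30 in some tumor, and 21 had none. Gains in post-PHx tumors covered 8 of 30, against 9.3% of all genes, and gains in spontaneous tumors 3 of 30, against 8.31%, where the share was close to that of all genes.

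These gains stood mostly in PHx4M and PHx3M. PHx4M, which also gained Ccne1, gained the A-type cyclin gene Ccna1 (mean 0.78), the E2F factor gene E2f1 and the Rb1 relative Rbl1 in the same 39.0 Mb region of chromosome 2 (mean 0.63), Skp2 (mean 0.57), which encodes a ubiquitin ligase subunit that marks the inhibitor p27 for breakdown, and the helicase subunit gene Mcm5 (mean 0.42). PHx3M, which gained Cdk6 most strongly, gained E2f6 (mean 0.86), a repressive E2F factor gene, Tfdp1 (mean 0.84), which encodes the partner of E2F factors, and the helicase subunit gene Mcm3 (mean 0.52). PHx2F gained Skp2 (mean 0.42). In spontaneous tumors, Spon1M gained Rbl1 (mean 0.41) and E2f6 (mean 0.55), Spon2M gained Mcm3 (mean 0.48), and Spon5F, the tumor with the Rb1 loss, lost Mnat1 (mean -0.50), a subunit of the CDK-activating kinase. Each of these was covered by a region of 1.44 Mb or more. PHx5M and Spon4F had no called region anywhere. The study, by its own calls, reported aberrations in every spontaneous tumor, so for Spon4F the call rule used here differs from it.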

How the data were processed

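Genomic DNA of 12 tumors and their matched livers was hybridized to Agilent Mouse Genome CGH 4x44K arrays. The authors deposited the output of Agilent Feature Extraction (10.5.1.1 per the file headers), in which each channel's processed signal intensities are background-subtracted and dye-normalized, and the deposited log10 ratio is that of red over green. At least 99.7% of ratios equalled those of the intensities within 0.001. Probe positions and gene names are those of the files, on build mm8, and exons or introns were not annotated here. The methods name ADM-2 for the study's own calls, which were not used.

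Here the ratios were converted to log2, spots that were controls or marked as outliers (108 to 1218 per array) were dropped, repeated spots were averaged, and arrays were centred on the autosomal median. This left 41081 to 42160 probes per array, with a median signal of 3.34 to 13.2 times background. Gene names on several chromosomes or spanning over 3 Mb were left out (20464 of 20524 kept). The region caller scored intervals with weights from the deposited errors, at a threshold of 6 and at least 2 probes. The gene windows were tested in R 4.3.3 by limma 3.58.1 (lmFit, eBayes, both groups in 1 fit, Benjamini-Hochberg over all genes). Both steps were also run on simulated data with independent normal noise. Such data lack the structure shared by neighbouring probes and overlapping windows, so the runs do not check the results on these arrays. The arrays carry no counts, and the number of arrays and their signal limit the precision. The study's text describes 6 mice per group, so each tumor was taken as 1 animal.

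The members, the other G1/S genes and the tests were chosen with earlier results of these data known. Named were every member, each listed G1/S gene with a called region of at least 5 probes or an adjusted p under 0.05, and the 2 closest followers of each member with called regions in at least 2 tumors. The alternatives were normexp background correction (offset 50), no centring or mode centring, only probes well above background, a gene's own probes, 5 or 20 flanking probes, window medians, slide, sex or tumor number in the fit, array weights, exact tests, each tumor left out, and other score thresholds (5, 8 and 10), limits (0.25 and 0.6), minimum probes (5) and weights for calls. In a further alternative, a window mean of at least 0.4 in size was taken as a call. Leaving out Spon1M and Spon3F together, and calls anywhere in a gene's window, were added after seeing the data. Tumor numbers do not pair the tumors, since 4 of 6 same-numbered pairs differ in sex.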

Additional observations from a re-analysis of the deposited data

Results flagged for a closer look

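Among the 18 sets of 6 values (9 members in each group), 6 held a tumor whose gap to the next exceeded Dixon's 95% limit. A rate of about 1 set in 20 holds only for independent, normally distributed sets. These sets share arrays and in part chromosomes, so their count cannot be set against that rate. PHx6F was far above the other post-PHx tumors for Ccnd3 (0.74), and Spon6F far above the other spontaneous tumors for the same gene (1.05). PHx2F was far above the other post-PHx tumors for Ccne2 (1.51). All 3 lay in called gains. PHx5M was far below the other post-PHx tumors for Cdkn2a (-0.25), beside a chromosome 4 median of -0.23. Spon3F was far below the other spontaneous tumors for Ccnd1 (-0.48) and Cdk4 (-0.50), where the window medians were -0.10 and -0.13. No cause was tested for any of them.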

How the results depend on the processing

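The comparison of post-PHx with spontaneous tumors called 0 genes under every alternative run, and Cdk6 stayed higher in post-PHx tumors in all of them (0.35 to 0.76, lowest adjusted p 0.406). With tumor number as a replicate block, 0 genes were called and Cdk6 differed by 0.57 (adjusted p = 0.578). Same-numbered tumors correlated between -0.17 and 0.55 in their deviations, and the numbers give no pairing. Post-PHx tumors against own liver gave 5 called genes with normexp, 540 with own probes alone, 1761 with array weights, 0 whichever tumor was left out, and 0 otherwise. Spontaneous tumors against own liver gave 797 with normexp, 307 with mode centring, 848 with own probes alone, 674 with slide as a random block, 1190 with sex as a covariate, 481 with array weights, and 0 to 607 on leaving out 1 tumor, where only the omission of Spon5F gave any. The cause was not tested. The number of member values in called regions was 10, and 7 to 15 under the alternatives.

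Differences of members between the groups that turned sign did not pass the test in any of these fits (lowest adjusted p 0.814). With own probes alone they were -0.031 for Ccnd1, -0.0076 for Cdk4 and -0.055 for Cdkn1a. With slide as a block, or only the slide with both groups, they were -0.025 for Ccnd1, -0.28 for Ccne2 and -0.046 for Cdkn2a. With sex as a covariate they were 0.074 for Ccnd3 and -0.022 for Rb1, with array weights -0.040 for Ccnd1, and without Spon1M and Spon3F -0.061 for Ccnd1 and -0.016 for Cdk4. Leaving out 1 tumor gave -0.038 to 0.078 for Ccnd1 (turned without Spon3F), -0.16 to 0.13 for Ccnd3 (without PHx5M or Spon6F), -0.18 to 0.23 for Ccne2 (without PHx2F or Spon2M), -0.0082 to 0.12 for Cdk4 (without Spon3F) and -0.061 to 0.095 for Rb1 (without Spon5F). It gave 0.017 to 0.14 for Ccne1 and 0.055 to 0.15 for Cdkn2a, with no turn.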
